A study of Mus musculus with 2 samples.

Results

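Hes5-high cells were 191 of 3055 cells of mouse neurospheres, a share of 6.25% (exact binomial 95% interval 5.42 to 7.17). They were chosen by their counts of Hes5, Dll1 and Dll3, which are therefore given as description only. A cell was taken as Hes5-high when it held 2 or more transcripts of Hes5 and fewer than 2 of the ligand genes Dll1 and Dll3 summed, each transcript being counted as a unique molecular identifier (UMI). The 3055 cells had at least 2000 UMIs, at least 500 detected genes and at most 10% of UMIs from mitochondrial genes, out of 4000 barcodes in all. They were set against zero cells, the 2006 cells (65.7%) with no UMI of Hes5, Dll1 or Dll3, and against 171 Delta cells, which held 2 or more UMIs of Dll1 and Dll3 and fewer than 2 of Hes5. A further 268 cells had a single Hes5 UMI with fewer than 2 of the ligands, and 10 cells met both minimums and belong to neither group.

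The cells came from floating colonies grown from the ventricle walls of embryonic CD1 forebrain, in serum-free medium with leukemia inhibitory factor (LIF) at 10 ng/mL. Colonies of 50 μm or more were scored after 7 to 10 days, dissociated, and captured by Drop-seq, which tags the polyadenylated RNA in each droplet with a cell barcode and a UMI. The protocol also names an additive, EFH, that it does not define, and gives no number of embryos, so all groups share the strain, the cytokine and the culture. The labels list 2 samples of this 1 group, but the single count table does not say which barcode came from which, so it was treated as 1 sample, no test was possible, and all intervals are 95% intervals for counting error only.

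Notch is a receptor that is cut by proteases once it binds a ligand on a neighbouring cell. The cuts free an intracellular domain that joins the DNA-binding protein RBPJ and switches on Hes and Hey genes. In the embryonic forebrain Hes5 and Hes1 encode repressors of proneural genes and keep radial glia, the stem cells of the ventricle wall, from becoming neurons. The ligand genes Dll1 and Dll3 are expressed by cells with high proneural activity, and these cells and Notch-responding progenitors lie side by side.

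The promoters that bear on the results are those of Hes5, which chose the cells, of the Notch target Nrarp, and of the metallothionein genes Mt1 and Mt2, which had among the largest ratios. The windows run from 250 bases before to 50 bases after the gene start and come from RefSeq on GRCm38.p6, at chr4:154960673-154960972 for Hes5, chr2:25180508-25180807 for Nrarp, chr8:94178839-94179138 for Mt1 and chr8:94172368-94172667 for Mt2, all on the plus strand. Capitals mark the RBPJ core TGGGAA on either strand in Hes5 and Nrarp, and the metal response element cores TGCACNC and TGCGCNC on either strand in Mt1 and Mt2.
Hes5: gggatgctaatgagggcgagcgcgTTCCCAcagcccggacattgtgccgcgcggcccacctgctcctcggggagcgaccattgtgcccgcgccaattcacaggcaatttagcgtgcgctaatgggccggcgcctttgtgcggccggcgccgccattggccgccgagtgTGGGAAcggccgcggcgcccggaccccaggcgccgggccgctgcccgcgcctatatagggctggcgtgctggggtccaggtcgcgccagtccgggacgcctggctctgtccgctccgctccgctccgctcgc
Nrarp: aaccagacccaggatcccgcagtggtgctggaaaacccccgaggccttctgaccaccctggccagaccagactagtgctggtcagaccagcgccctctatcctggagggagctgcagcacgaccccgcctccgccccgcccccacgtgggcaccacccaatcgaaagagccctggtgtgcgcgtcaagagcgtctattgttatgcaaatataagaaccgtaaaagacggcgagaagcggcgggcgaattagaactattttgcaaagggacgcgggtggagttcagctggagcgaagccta
Mt1: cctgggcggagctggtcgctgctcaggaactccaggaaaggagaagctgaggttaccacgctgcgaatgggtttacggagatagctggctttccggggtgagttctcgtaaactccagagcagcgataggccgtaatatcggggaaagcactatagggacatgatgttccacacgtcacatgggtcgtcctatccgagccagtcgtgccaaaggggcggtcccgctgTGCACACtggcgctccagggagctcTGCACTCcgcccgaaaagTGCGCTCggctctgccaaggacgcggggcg
Mt2: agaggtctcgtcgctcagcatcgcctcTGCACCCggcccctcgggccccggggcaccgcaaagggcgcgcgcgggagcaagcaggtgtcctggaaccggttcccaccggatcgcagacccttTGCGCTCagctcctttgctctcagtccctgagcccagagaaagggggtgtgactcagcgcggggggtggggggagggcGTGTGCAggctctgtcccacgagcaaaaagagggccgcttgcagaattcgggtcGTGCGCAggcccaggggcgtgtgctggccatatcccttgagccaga
The Hes5 window held 2 cores, in opposite orientation, whose first bases lie at -226 and -82 from the gene start, and both were part of the longer TGTGGGAA. Of 32851 mouse promoter windows of the same length, 25.6% held TGGGAA at least once and 3.79% at least 2 times, and only 15 windows (0.0457%) held TGTGGGAA 2 or more times. The Nrarp window held no TGGGAA, and the window of Hey2, a further Notch target whose letters are not shown, held 2 cores, at -207 and -3. The Mt1 window held 3 metal response cores and the Mt2 window 4, while 25.7% of all windows held at least 1 and 0.517% held 4 or more. The Mt2 window also held 1 RBPJ core, at -151, which is not in capitals. These are matches of letters in a short window, and no binding was measured.

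Hes5 was unevenly spread over the cells. Of the 3055 cells 2567 had 0 Hes5 UMIs, 287 had 1, 99 had 2, 58 had 3 to 4, 34 had 5 to 9 and 10 had 10 or more. The Hes5-high cells held 684 of the 1022 Hes5 UMIs (66.9%), with a median of 2 and a highest count of 19 in a cell. The variance of Hes5 over cells was 3.99 times its mean, and 1.98 times when every cell was thinned at random to 2000 UMIs, the common depth of all the CPM values and ratios given here unless stated. At that depth the factor was 1.47 for Hes1, 1.76 for Dll3 and 1.21 for Sox2, a progenitor transcription factor gene, and far higher for the metallothionein genes, at 21.3 for Mt1 and 17.1 for Mt2. A value near 1 is what counting alone gives. Of the Hes5-high cells 161 had no ligand UMI and 30 had 1.

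**Figure D1:**
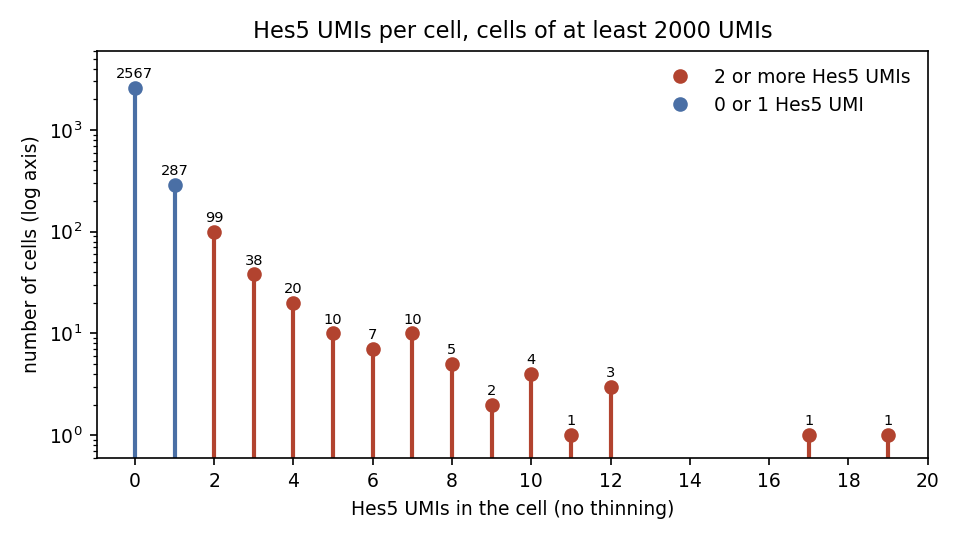
Number of cells (log axis) at each count of Hes5 UMIs per cell, without thinning, for the 3055 cells of at least 2000 UMIs; red points are counts of 2 or more, blue points 0 or 1. Most cells, 2567, had no Hes5 UMI, 99 had exactly 2, and 10 had 10 or more.

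The background of stray Hes5 UMIs was read in neuron-like cells, of which there were only 13. Without thinning 1 of them had a Hes5 UMI and 0 had 2, at a median of 2647 UMIs. At equal depth 8.81% of all 3055 cells had a Hes5 UMI (7.82 to 9.87) at a median original depth of 4493 UMIs, against 0 of 13 neuron-like cells, a count that still allows a share of up to 23.1%. The background was therefore poorly bounded at this number of cells.

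The rule also favours deep cells. The median depth was 5659 UMIs in Hes5-high cells (lowest 2025, highest 52570) and 4297.5 in zero cells (lowest 2000, highest 24622). Mitochondrial genes took 27068 CPM in Hes5-high cells and 31022 CPM in zero cells, ribosomal protein genes 82296 and 82660 CPM, and the nuclear RNA Malat1 2699 and 2893 CPM. No barcode occurred more than once, and 25 pairs of barcodes differed by 1 base, of which none joined a pair of Hes5-high cells.

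Against zero cells, the Hes5-high cells stood out by metallothionein, hypoxia-response and astroglial transcripts and by low D-type cyclins and Gap43. Of 6332 genes with at least 100 UMIs over both groups, 342 (5.40%) were at least 1.5-fold higher in Hes5-high cells and 538 (8.50%) at least 1.5-fold lower, and the median ratio over these genes was 0.986. Here higher and lower mean past this fold, with no test behind them. A single random thinning adds counting noise, and with the levels averaged over all possible thinnings 183 genes (2.89%) were higher and 233 (3.68%) lower, of which 142 and 169 were also past the fold in the single thinning.

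Mt1 and Mt2 encode metallothioneins, small proteins that bind zinc and copper, and lie next to each other on chromosome 8 (Mt1 94179082 to 94180327, Mt2 94172664 to 94173568, mm10). Mt1 was at 2657 CPM in Hes5-high cells and 836 CPM in zero cells, a ratio of 3.18 (2.96 to 3.41). Mt2 was at 1055 CPM in Hes5-high cells and 253 CPM in zero cells, a ratio of 4.17 (3.71 to 4.69). The excess sat in a minority of cells. Counted together per cell at equal depth, Mt1 and Mt2 had a median of 2 UMIs in Hes5-high cells (lowest 0, highest 161) and of 1 in zero cells (lowest 0, highest 172). The highest 10% of Hes5-high cells began at 14 UMIs and that of zero cells at 4. The groups overlapped over nearly their whole range.

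The next leading genes were Thrsp, a regulator of lipid synthesis known from liver, at a ratio of 3.74 (2.48 to 5.53), and Fam181a, at 3.59 (2.25 to 5.57). Without thinning Fam181a was at 1.78, and at 4000 UMIs a cell Thrsp was at 1.71. Bnip3, a mitochondrial protein induced under low oxygen, was at 118 CPM in Hes5-high cells and 36.4 CPM in zero cells, a ratio of 3.24 (2.26 to 4.55). Slc2a1, the glucose transporter GLUT1, had a ratio of 3.19 (1.93 to 5.09) and Pdk1, which restrains pyruvate oxidation, 2.57 (1.53 to 4.13). At 4000 UMIs a cell Bnip3 and Slc2a1 were at 2.16 and 2.09. Ttyh1, a membrane protein of neural stem cells and astrocytes, was at 335 CPM in Hes5-high cells and 126 CPM in zero cells, a ratio of 2.65 (2.17 to 3.23). It had a UMI in 35.6% of Hes5-high cells and 18.1% of zero cells at equal depth. Mmd2 (2.64), Ndrg2, an astrocyte-rich cytoplasmic protein (2.47), Pdpn, the surface glycoprotein podoplanin (2.40), and Ccng2, a cyclin G gene (2.66), had like ratios, but Ccng2 was near 1 when cells were thinned to 1000 UMIs. S100a1, Wipi2 and Gpr89 complete the 15 highest, at 2.38, 2.41 and 2.37. As the average over all thinnings these last 3 were at 1.79, 1.41 and 1.43.

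The 15 lowest ratios belonged to genes with 1 to 4 UMIs in all Hes5-high cells together, and they say little. Akap13 had 1 UMI in Hes5-high cells and 117 in zero cells, a ratio of 0.0898 (0.00227 to 0.510), but 0.654 as the average over all thinnings. Among these, Itga4, an integrin subunit (0.266), Tefm (0.281), AI593442 (0.306), Ppp1r16b (0.310), Btbd3 (0.369), Bcl2l1, the anti-apoptotic BCL-XL (0.394), Surf6 (0.486), Trim2 (0.514), Rapgef2 (0.533), Cdc6, a replication licensing factor (0.572), and Pdzrn4 (0.632) were past the fold in that average. Rela, Zfp945 and Agps were not, at 0.842, 0.782 and 0.767.

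**Figure D2:**
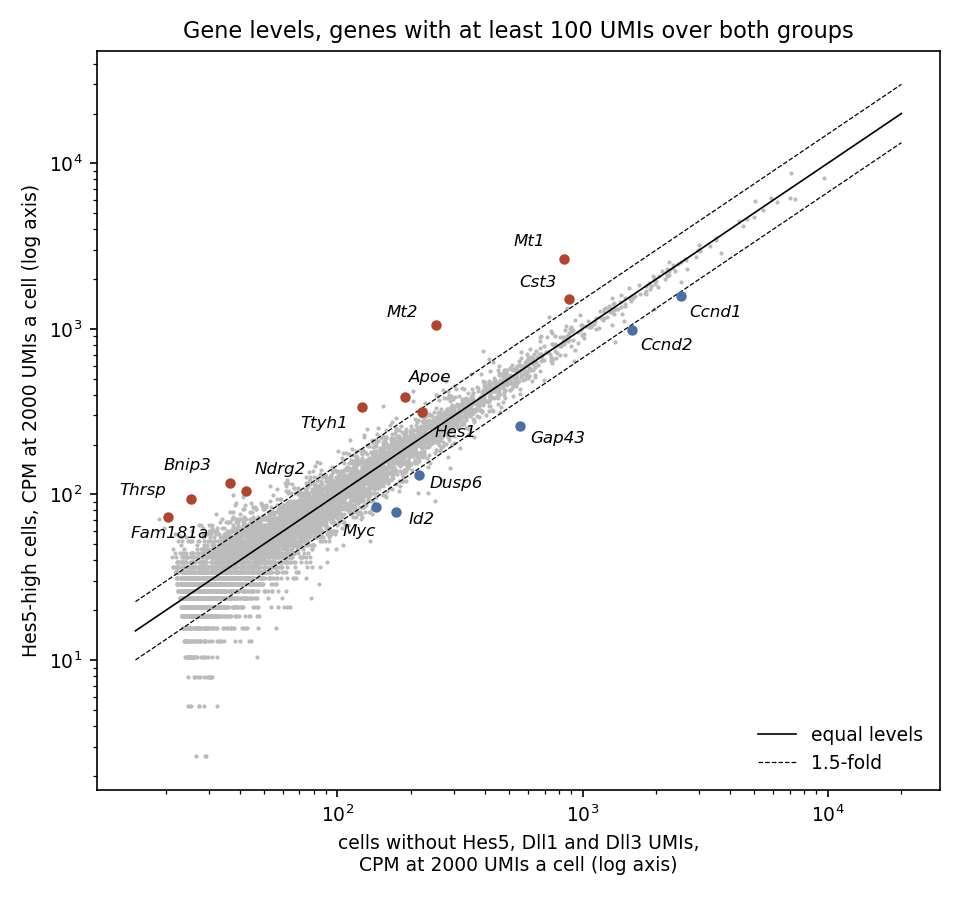
Level of each of the genes with at least 100 UMIs over both groups, in CPM at 2000 UMIs a cell, in Hes5-high cells (vertical, log axis) and in zero cells (horizontal, log axis); the solid line marks equal levels and the dashed lines 1.5-fold, and Hes5, Dll1 and Dll3 are left out. Mt1 and Mt2 lie far above the upper dashed line, Ccnd1, Ccnd2 and Gap43 below the lower one, and the spread widens at low levels where few UMIs were counted.

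Other genes of the Notch pathway were described by role. Of the receptors, Notch1 was at 99.5 CPM in Hes5-high cells and 54.6 CPM in zero cells, a ratio of 1.82 (1.26 to 2.58). It was the only receptor with enough UMIs to be counted, and the 4 receptor genes summed had a ratio of 1.71 (1.27 to 2.27). That sum depended on depth and draw, at 1.18 (0.864 to 1.57) at 4000 UMIs a cell, 1.33 without thinning and 1.40 with another seed. Notch3 had 13 UMIs in Hes5-high cells and 66 in zero cells, a ratio of 2.07 (1.05 to 3.79), but of 0.399 with groups set on thinned counts and 0.785 at 4000 UMIs a cell. Notch2 had 5 and 54, a ratio of 0.972 (0.304 to 2.41), and Notch4 had none in Hes5-high cells. Of the ligands outside the rule, Jag1 had 1 UMI in Hes5-high cells and 79 in zero cells, a ratio of 0.133 (0.00332 to 0.763), or 0.350 as the average over all thinnings. Dner, a ligand-like membrane protein of neurons, had a ratio of 0.820 (0.528 to 1.22), and the 6 ligand genes of the list summed had 0.738 (0.492 to 1.07). As the average over all thinnings Dner was at 0.644, past the fold, and that sum at 0.623.

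Genes that glycosylate receptors or activate ligands had a summed ratio of 1.03 (0.847 to 1.23), with 0 of 4 measured past the fold. Lfng, a fringe enzyme that tunes which ligand a receptor answers, was at 183 CPM in Hes5-high cells and 166 CPM in zero cells, a ratio of 1.10 (0.849 to 1.41). Of 7 measured genes of receptor cleavage and the nuclear complex, whose list had a summed ratio of 1.04 (0.901 to 1.20), 1 was higher, Ncstn, which encodes the γ-secretase subunit nicastrin, at 1.75 (0.941 to 3.04) from 15 UMIs in Hes5-high cells. It was at 1.35 as the average over all thinnings. Adam10, the first protease to cut the receptor, had a ratio of 0.897 (0.667 to 1.19), and Fbxw7, which marks the free domain for degradation, 0.737 (0.443 to 1.16). Rbpj had 13 UMIs in Hes5-high cells and 67 in zero cells, a ratio of 2.04 (1.03 to 3.72), but 1.24 as the average over all thinnings and 0.630 at 1000 UMIs a cell.

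Of the 5 other Notch targets listed, 3 had UMIs in Hes5-high cells, and together they were at 419 CPM there and 259 CPM in zero cells, a ratio of 1.61 (1.36 to 1.91). Hes1 carried most of it, with 314 CPM in Hes5-high cells and 221 CPM in zero cells, a ratio of 1.42 (1.16 to 1.72), under the fold. As the average over all thinnings Hes1 was at 1.51, just past the fold. Per cell Hes1 had a median of 0 in both groups, a highest count of 8 in Hes5-high cells and 7 in zero cells, and a UMI in 39.8% of Hes5-high cells (32.8 to 47.1) and 30.7% of zero cells (28.6 to 32.7). Nrarp, a feedback inhibitor of Notch, had 23 UMIs in Hes5-high cells and 76 in zero cells, a ratio of 3.18 (1.90 to 5.12). Hey1 had 17 UMIs in Hes5-high cells and 76 in zero cells, a ratio of 2.35 (1.30 to 4.01). Both fell short of the 100 UMIs needed to be counted. Hey2 and Heyl had 0 UMIs in Hes5-high cells at this depth. The label of Notch-responding cells thus rests, beside Hes5, on ratios for Nrarp, Hey1 and Hes1 whose intervals lie above 1. None was counted as higher in the single thinning. Notch1 was counted as higher but encodes a receptor and is not among the listed targets. The other targets were also raised in some cells without Hes5 UMIs, given below with the hypoxia-high cells.

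Proneural genes did not move as a group. Of 7 measured, 1 was higher and 2 were lower, with a median ratio of 1.19, and the list was at 1317 CPM in Hes5-high cells and 1124 CPM in zero cells, a ratio of 1.17 (1.07 to 1.29). Hes6, which antagonises Hes1, was higher at 1.53 (1.19 to 1.93), and Btg2, an antiproliferative gene of dividing neurogenic progenitors, had 1.47 (1.14 to 1.88). Gadd45g was at 75.9 CPM in Hes5-high cells and 139 CPM in zero cells, a ratio of 0.548 (0.363 to 0.796), and Sox11, a neuronal differentiation factor, had 0.530 (0.191 to 1.19) from 6 UMIs. Sox4 had 1.25 (1.08 to 1.45). As the average over all thinnings Hes6 and Sox11 were short of the fold, at 1.46 and 0.782.

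Id genes encode inhibitors of proneural factors and respond to BMP. Id2 was at 78.5 CPM in Hes5-high cells and 173 CPM in zero cells, a ratio of 0.453 (0.303 to 0.652), Id1 at 81.2 and 41.4 CPM, a ratio of 1.96 (1.29 to 2.89), and Id3 at 427 and 447 CPM, a ratio of 0.955 (0.808 to 1.12). Id1 was at 1.49 as the average over all thinnings, just under the fold. Of the 8 measured genes of the Id and BMP list 1 was higher and 3 were lower, with a median ratio of 1.05, and its sum had a ratio of 0.923 (0.820 to 1.04).

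Astroglial transcripts were higher and neuronal and oligodendrocyte transcripts were not. Of 11 measured astrocyte genes 5 were higher and 1 was lower, with a median ratio of 1.32, and the list was at 3395 CPM in Hes5-high cells and 2090 CPM in zero cells, a ratio of 1.62 (1.53 to 1.72), or 1.42 (1.35 to 1.501) at 4000 UMIs a cell. Cst3, the secreted protease inhibitor cystatin C, was at 1513 CPM in Hes5-high cells and 881 CPM in zero cells, a ratio of 1.72 (1.57 to 1.88). Apoe, the brain's lipid carrier, had a ratio of 2.05 (1.71 to 2.45), Slc1a2, a glutamate transporter, 1.93 (1.13 to 3.12), and Aldoc, the glial aldolase, 1.51 (1.28 to 1.78). Sparcl1 was lower at 0.426 (0.154 to 0.949), from 6 UMIs in Hes5-high cells. The defining gene of mature astrocytes, Gfap, had 1 UMI in Hes5-high cells and 3 in zero cells, so its ratio of 3.50 had an interval of 0.0667 to 43.6.

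Radial glia genes were close to the zero cells. The list was at 15720 CPM in Hes5-high cells and 14352 CPM in zero cells, a ratio of 1.10 (1.07 to 1.12), and 2 of 12 measured genes were higher, with a median ratio of 1.18. Nr2e1, the stem cell receptor TLX, was at 1.63 (1.13 to 2.28), Sox2 at 1.33 (1.15 to 1.54), Slc1a3 at 1.29 (1.13 to 1.46) and Fabp7, the lipid-binding protein of radial glia, at 1.24 (1.19 to 1.28). Vim and Tnc had ratios under 1, at 0.780 (0.733 to 0.829) and 0.739 (0.610 to 0.888). Nes was at 1.08 (0.958 to 1.22). Pax6, a dorsal radial glia factor, had only 18 UMIs in Hes5-high cells and 62 in zero cells, a ratio of 3.05 (1.70 to 5.22).

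Gap43, a growth-cone protein gene that the neuron list holds, was at 259 CPM in Hes5-high cells and 553 CPM in zero cells, a ratio of 0.469 (0.379 to 0.573). The neuron list had a ratio of 0.619 (0.538 to 0.708). Gap43 had a UMI in 30.4% of Hes5-high cells and 49.1% of zero cells at equal depth. Map2 did not share this, with a ratio of 0.912 (0.746 to 1.11). Of the 16 neuron genes 9 had 0 UMIs in Hes5-high cells, among them Dcx, Stmn2 and Tubb3. Hes5-high cells held 382000 UMIs in all and zero cells 4012000, so rare genes reach 0 more easily in Hes5-high cells. Neuron-like cells were 0 of the 191 Hes5-high cells (upper limit 1.91%) and 12 of the 2006 zero cells (0.598%), shares that were not told apart. Olig1 and Olig2, factors of ventral and oligodendrocyte progenitors, had ratios of 0.795 (0.717 to 0.880) and 0.782 (0.669 to 0.908), and 1 of 7 measured genes of that list was lower, Bcas1, at 0.656 (0.294 to 1.28), with a median ratio of 0.827. Bcas1 had only 9 UMIs in Hes5-high cells.

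Markers of cells from outside the neural lineage were near 0. The microglia and meningeal fibroblast lists had 0 UMIs in Hes5-high cells, and the endothelial list had 4 UMIs there, a level of 10.5 CPM, against 9.72 CPM in zero cells. The mural list was at 23.6 CPM in Hes5-high cells and 15.2 CPM in zero cells. The ependymal list was at 47.1 and 22.2 CPM, mostly from Foxj1, a gene of ciliated cells, with 11 UMIs in Hes5-high cells and 39 in zero cells. The choroid plexus list was at 62.8 and 30.7 CPM, all but 1 UMI of it in Hes5-high cells from Otx2.

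**Figure D3:**
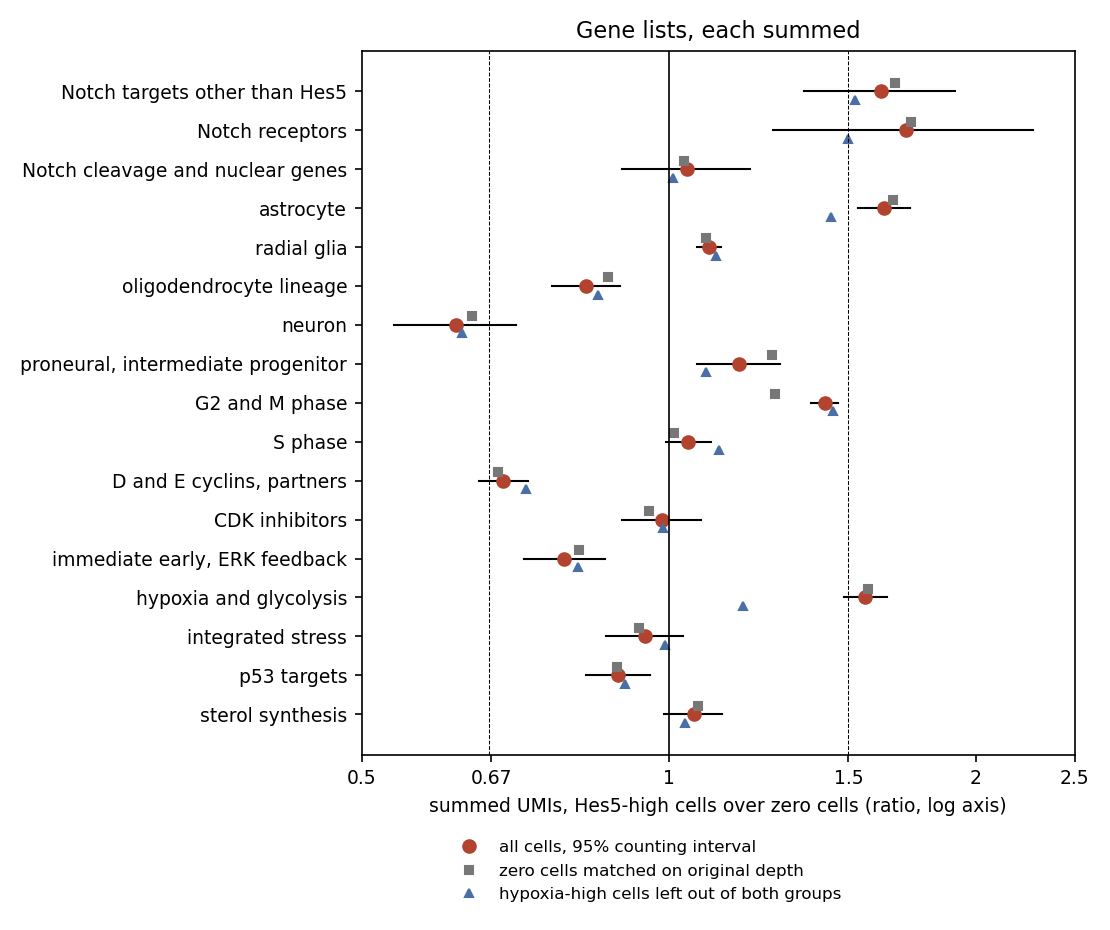
Ratio of the summed UMIs of each gene list, Hes5-high cells over zero cells (log axis); red points with 95% counting intervals hold all cells of both groups, grey squares use zero cells weighted to the original depths of the Hes5-high cells, and blue triangles leave hypoxia-high cells out of both groups. The hypoxia and glycolysis list falls to 1.18 without hypoxia-high cells, and the G2 and M phase list to 1.27 with depth-matched zero cells.

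Cell cycle genes split by phase. The G2 and M phase list was at 12194 CPM in Hes5-high cells and 8574 CPM in zero cells, a ratio of 1.42 (1.38 to 1.47), with 22 of 51 measured genes higher, 0 lower and a median ratio of 1.40, where the median of all measured genes was 0.986. Cenpf, a kinetochore protein, was at 1.999 (1.66 to 2.39), the mitotic kinase gene Aurka at 2.34 (1.59 to 3.36), Ube2c at 1.76 (1.496 to 2.05), Cdc20 at 1.58 (1.32 to 1.88), Ccnb2 at 1.57 (1.20 to 2.03) and Top2a at 1.53 (1.32 to 1.78). The S phase list was at 4359 CPM in Hes5-high cells and 4170 CPM in zero cells, a ratio of 1.05 (0.993 to 1.10), with 2 of 39 genes higher, 2 lower and a median of 1.08. Per cell the G2 and M list had a median of 20 UMIs in Hes5-high cells (lowest 1, highest 71) and 11 in zero cells (lowest 0, highest 74).

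The G2 and M phase excess moved with original depth. With zero cells weighted to the depths of the Hes5-high cells, the background was 5.67% of genes higher and 8.50% lower, 9 of the 51 genes were higher and 1 lower, and the ratio of the list was 1.27. Ube2c, Top2a and Cdc20 were then under the fold, at 1.35, 1.23 and 1.46, and Cenpf and Aurka above it, at 1.59 and 1.67. With the groups set on the thinned counts, which left 69 Hes5-high cells, the ratio was 1.17 (1.11 to 1.24). A UMI of any of 6 proliferation genes was found in 81.7% of Hes5-high cells (75.4 to 86.9) and 72.9% of zero cells (70.9 to 74.9), or 75.6% of zero cells at matched depths, and in 5 of 13 neuron-like cells (38.5%). With groups set on thinned counts the order turned, with 69.6% of Hes5-high cells and 74.2% of zero cells. Most Hes5-high cells carried proliferation transcripts under either choice, while the order of the groups depended on the depth at which they were set.

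The D-type cyclin genes of G1 went the other way from the mitotic genes. Ccnd1 was at 1571 CPM in Hes5-high cells and 2528 CPM in zero cells, a ratio of 0.621 (0.571 to 0.675), and Ccnd2 at 990 and 1587 CPM, a ratio of 0.624 (0.561 to 0.692). Per cell Ccnd1 had a median of 3 UMIs in Hes5-high cells (lowest 0, highest 14) and 5 in zero cells (lowest 0, highest 18). Ccnd3 had a ratio of 1.09 (0.700 to 1.64) and the kinase partner Cdk4 0.966 (0.857 to 1.09). Of the 7 measured genes of the D and E cyclin list 0 were higher and 3 were lower, with a median ratio of 0.745, Cdk2 being the third, at 0.546 (0.231 to 1.10) from 8 UMIs and at 0.668 as the average over all thinnings, short of the fold. The same direction held for Ccnd1 in Hes5-high and zero cells without a proliferation UMI, at 0.538, and with groups set on thinned counts, at 0.549.

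Genes encoding inhibitors of the cyclin-dependent kinases were divided. Cdkn1b (p27) was higher at 1.55 (1.23 to 1.92) and Cdkn2c (p18) at 1.67 (1.14 to 2.38), though Cdkn1b was at 1.46 as the average over all thinnings, and Cdkn2b (p15) was lower at 0.613 (0.379 to 0.942). Cdkn1a (p21), at 827 CPM in Hes5-high cells and 957 CPM in zero cells, had a ratio of 0.865 (0.768 to 0.970). Of the 6 measured genes 2 were higher and 2 lower, with a median ratio of 1.10, and their sum had a ratio of 0.984 (0.899 to 1.08). Cdkn1c (p57) had 12 UMIs in Hes5-high cells and 46 in zero cells, a ratio of 2.74 (1.32 to 5.26).

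Immediate early and ERK feedback genes, which read out growth factor signalling, were lower where they differed. Of 14 measured genes 0 were higher and 5 lower, with a median ratio of 0.869, and the list was at 1325 CPM in Hes5-high cells and 1677 CPM in zero cells, a ratio of 0.790 (0.720 to 0.865). The lower genes included Jun, at 0.593 (0.454 to 0.763), the ERK phosphatase gene Dusp6, at 0.608 (0.448 to 0.810), Spry4, a feedback inhibitor of receptor signalling, at 0.577 (0.386 to 0.833), and Myc, at 0.583 (0.395 to 0.833). Egr1 was at 1.02 (0.814 to 1.27). The receptor gene Egfr had a ratio of 1.37 (1.07 to 1.75) and Stat3, which relays the LIF signal, 1.02 (0.660 to 1.52), and none of the 4 measured receptor and LIF pathway genes was past the fold, at 1.24 (1.06 to 1.43) for the sum of that list, which was at 0.969 with another seed.

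Lists close to the zero cells were those of sterol synthesis, with 0 of 15 measured genes past the fold and a ratio of 1.06 (0.990 to 1.13), and the integrated stress response, with 0 of 8 higher, 1 lower and a ratio of 0.947 (0.868 to 1.03). The p53 targets had 1 of 9 measured genes higher and 1 lower, and their sum was slightly lower, at a ratio of 0.892 (0.829 to 0.958). Among cells without proliferation UMIs that sum had a ratio of 0.730 (0.610 to 0.869). Extracellular matrix genes of glia had a ratio of 1.01 (0.951 to 1.08) with 0 of 6 past the fold. Genes of the dorsal forebrain were at a ratio of 1.01 (0.698 to 1.41) and those of the ventral forebrain at 1.06 (0.799 to 1.38), with none past the fold. Without thinning the dorsal list was at 1.26 (1.06 to 1.49) and the ventral list at 1.09 (0.940 to 1.26).

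Hypoxia and glycolysis genes were higher, and a subset of cells carried most of this. The list was at 5052 CPM in Hes5-high cells and 3242 CPM in zero cells, a ratio of 1.56 (1.49 to 1.63), with 12 of 21 measured genes higher, 0 lower and a median ratio of 1.62. Its ratio was 1.35 (1.30 to 1.41) at 4000 UMIs a cell and 1.37 (1.33 to 1.40) without thinning. Beside Bnip3, Slc2a1 and Pdk1 these included Ddit4, an inhibitor of mTORC1, at 2.06 (1.73 to 2.45), the vessel growth factor gene Vegfa at 1.98 (1.42 to 2.72), the oxygen sensor gene Egln3 at 1.96 (1.18 to 3.11) and Ldha, lactate dehydrogenase, at 1.62 (1.47 to 1.79). Glycolytic genes such as Ldha have near-identical processed copies in the genome, so their counts are uncertain.

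Hypoxia-high cells, the top 5% of the 3055 cells by summed UMIs of this list, were 158 cells with at least 16 of its UMIs, where the median cell had 6. They made up 35 of the 191 Hes5-high cells (18.3%, 13.1 to 24.6) and 68 of the 2006 zero cells (3.39%, 2.64 to 4.28). Of the Delta cells they were 15 of 171 (8.77%, 4.99 to 14.1). Read the other way, 22.2% of hypoxia-high cells were Hes5-high and 43.0% were zero cells.

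Metallothionein and astroglial levels were highest in hypoxia-high cells of either kind. Mt1 was at 10314 CPM in hypoxia-high Hes5-high cells and 8294 CPM in hypoxia-high zero cells, and at 939 CPM in the other Hes5-high cells and 575 CPM in the other zero cells. Apoe was at 857 CPM in hypoxia-high Hes5-high cells and 1463 CPM in hypoxia-high zero cells, and at 282 and 144 CPM in the others. Cdkn1c was at 129 and 118 CPM in hypoxia-high Hes5-high and zero cells, and at 9.62 and 7.74 CPM in the others. Notch targets other than Hes5 were at 571 CPM in hypoxia-high Hes5-high cells and 456 CPM (350 to 584) in hypoxia-high zero cells. They were at 385 CPM (319 to 460) in the other Hes5-high cells and 253 CPM in the other zero cells. Hes1 was at 414 and 368 CPM in hypoxia-high Hes5-high and zero cells, and at 292 and 216 CPM in the others.

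With hypoxia-high cells left out, 156 Hes5-high cells and 1938 zero cells remained, 327 of 6167 genes (5.30%) were higher and 556 (9.02%) lower. Mt1 then had a ratio of 1.63, Mt2 of 1.57, Bnip3 of 1.40 and Ddit4 of 1.17, and Vegfa, Egln3 and Otx2 were on the other side of 1, at 0.772, 0.796 and 0.710. Thrsp was at 2.26 and Mmd2 at 1.68. The hypoxia list, which chose the cells left out, had 2 of 17 measured genes higher and 0 lower, and a ratio of 1.18 (1.11 to 1.26). It holds Bnip3, Ddit4, Vegfa, Egln3, Slc2a1 and Ldha, so their ratios here are not independent of that choice. Astrocyte genes had a ratio of 1.44 (1.34 to 1.55), with 3 of 11 higher and 1 lower, and the Notch targets 1.52 (1.25 to 1.84). Ratios that moved less were those of Fam181a, at 3.79, Slc2a1, at 2.52, Nrarp, at 2.88, Ttyh1, at 2.26, Gap43, at 0.496, Ccnd1, at 0.653, Ccnd2, at 0.651, and Id2, at 0.457. Cdkn1c was at 1.24. Notch1, Hes6, Aldoc, Cst3 and Ldha were then under the fold, at 1.49, 1.38, 1.33, 1.47 and 1.28.

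**Figure D4:**
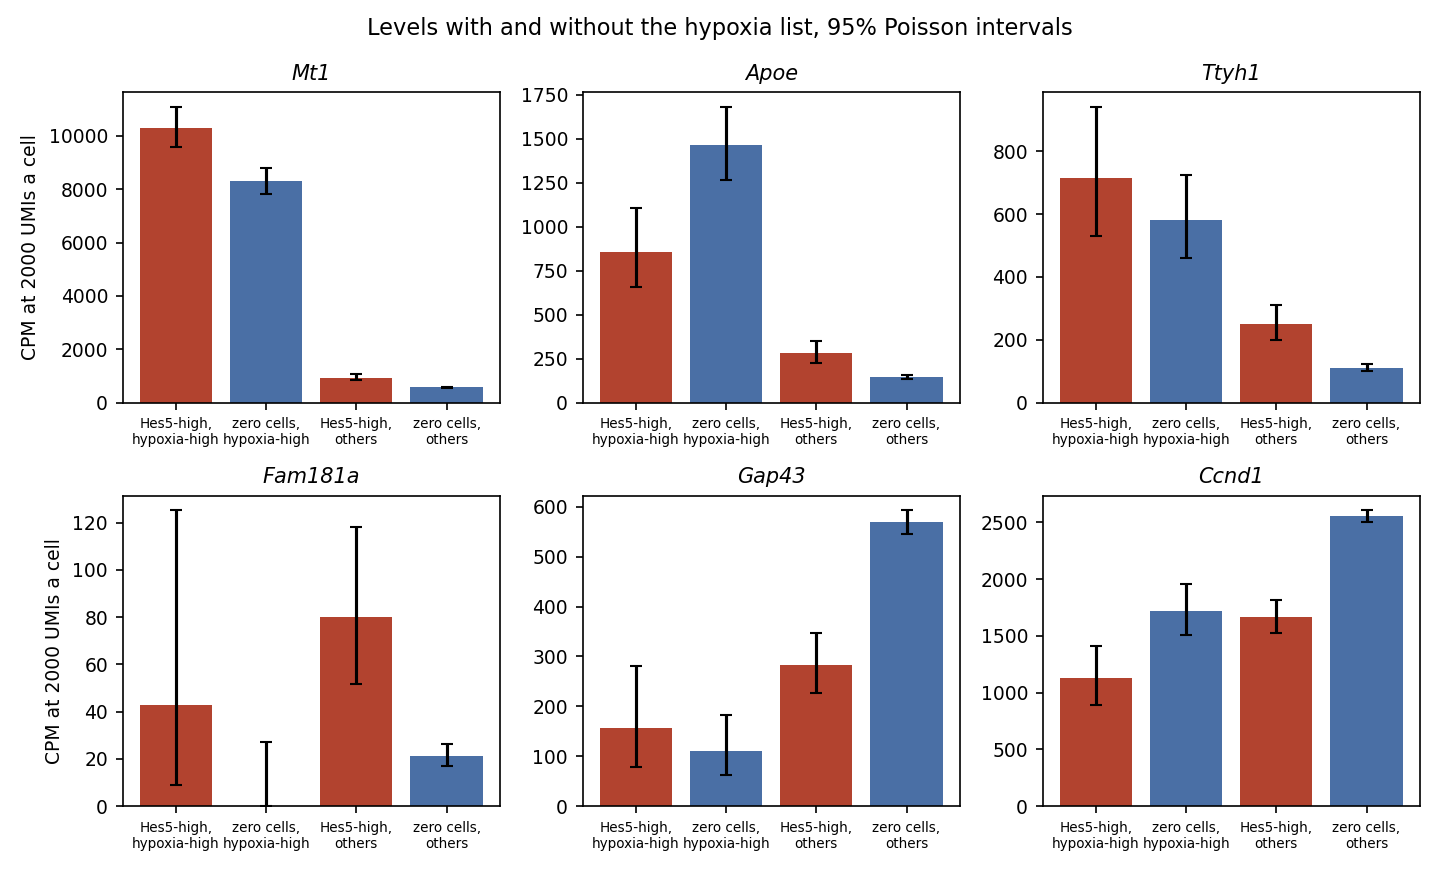
Levels of 6 genes in CPM at 2000 UMIs a cell with 95% Poisson intervals, in hypoxia-high Hes5-high cells and hypoxia-high zero cells (left pair) and in the other Hes5-high cells and the other zero cells (right pair); red bars are Hes5-high cells and blue bars zero cells. Mt1, Apoe and Ttyh1 are highest in hypoxia-high cells of either kind, while Ccnd1 is lower in Hes5-high cells within both pairs and Gap43 within the right pair only.

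Levels were also read by the number of Hes5 UMIs, in cells with 0, 1, 2, 3 to 4 and 5 or more. Those with 0 were the zero cells, which had no ligand UMI, while the others had fewer than 2. The step from 0 to 1 Hes5 UMI therefore also changed the ligand limit. The cells just outside the threshold, with 1 Hes5 UMI, had a median of 4742 UMIs. Ccnd1 was at 2528, 2164, 1703, 1455 and 1413 CPM in this order, and Gap43 at 553, 358, 276, 236 and 250 CPM. Mt1 was at 836, 983, 1531, 3409 and 4325 CPM, and the astrocyte list at 2090, 2640, 3047, 3545 and 4025 CPM. In each of these the cells with 1 Hes5 UMI already differed from those with 0 beyond their counting intervals, whereas from 2 UMIs on the neighbouring bins of Gap43 overlapped. Counting intervals leave out the spread between cells, which was large for Mt1, with a variance of 21.3 times its mean. Mt1 had a UMI in 57.1% of cells with 1 Hes5 UMI and 54.7% of those with 0.

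Notch targets other than Hes5 were at 259, 293, 359, 509 and 438 CPM over the same bins, and Nrarp at 18.9, 22.4, 31.2, 100 and 75 CPM. Hes1 was at 221, 246, 292, 364 and 300 CPM, and neighbouring bins did not differ beyond their counting intervals. The G2 and M list had no single order, at 8574, 10263, 12755, 9691 and 14288 CPM. The hypoxia list was at 3242, 4125, 4411, 5518 and 5950 CPM. Cells with more Hes5 UMIs were also deeper, since the bins use the original counts.

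**Figure D5:**
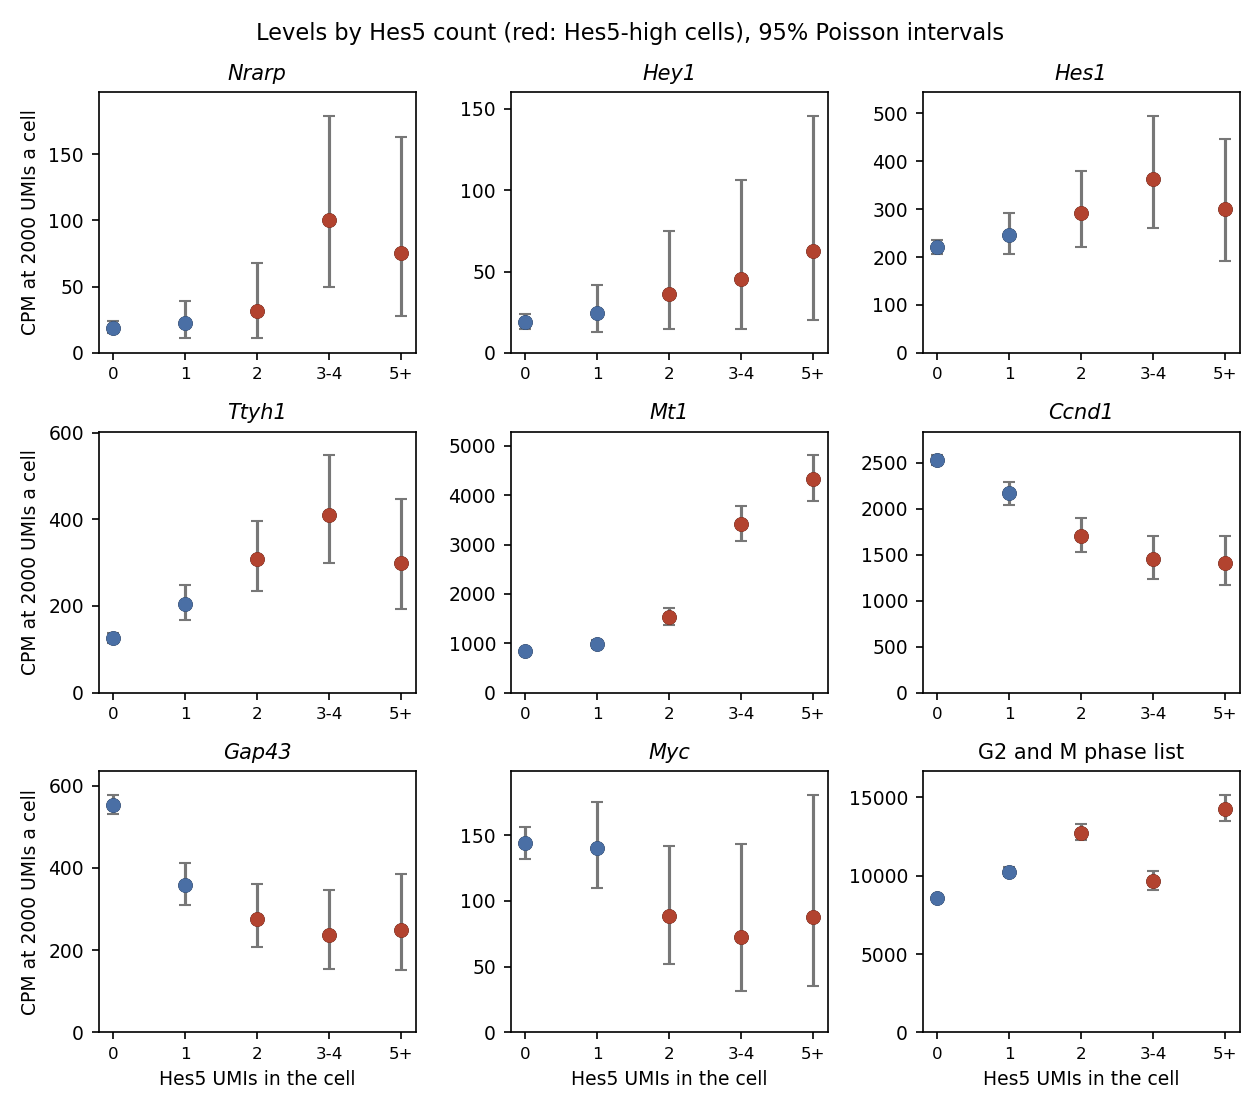
Levels in CPM at 2000 UMIs a cell, with 95% Poisson intervals, of 8 genes and the G2 and M phase list in cells with 0, 1, 2, 3 to 4 and 5 or more Hes5 UMIs. Red points are Hes5-high cells. The cells with 0 are the zero cells, without ligand UMIs, and the others have fewer than 2 ligand UMIs. Mt1 is highest, at 4325 CPM, and Ccnd1 lowest, at 1413 CPM, at 5 or more Hes5 UMIs, while the G2 and M list has no single order.

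Set against Delta cells, which carry the ligands, the Hes5-high cells had more of the other Notch targets, of astrocyte genes and of Mt1, and less of the oligodendrocyte lineage genes. Hes5 (639 CPM in Hes5-high cells, 26.3 CPM in Delta cells) and the ligands set these groups and are description only. Of 1514 genes with at least 100 UMIs over both groups, 73 (4.82%) were higher in Hes5-high cells and 39 (2.58%) lower. The other Notch targets were at 419 CPM in Hes5-high cells and 161 CPM in Delta cells, a ratio of 2.60 (1.91 to 3.61). Hes1 was at 314 CPM in Hes5-high cells and 143 CPM in Delta cells, a ratio of 2.19 (1.56 to 3.12), and Nrarp had 23 UMIs in Hes5-high cells and 1 in Delta cells, a ratio of 20.6 (3.34 to 848).

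Proneural output genes lay on the Delta side. Gadd45g was at 75.9 CPM in Hes5-high cells and 307 CPM in Delta cells, a ratio of 0.247 (0.158 to 0.376), and Sox4 at 565 and 994 CPM, a ratio of 0.569 (0.477 to 0.677). All 4 measured genes of the oligodendrocyte lineage list were lower, with Olig1 at 1052 CPM in Hes5-high cells and 1959 CPM in Delta cells, a ratio of 0.537 (0.474 to 0.609). All 4 measured astrocyte genes were higher, and that list had a ratio of 1.87 (1.70 to 2.06), with 3395 CPM in Hes5-high cells and 1819 CPM in Delta cells. Nr2e1 had a ratio of 2.91 (1.49 to 6.10), but the radial glia list had 2 of 9 measured genes higher, 0 lower and a median ratio of 0.983. Id3 was at 1.74 (1.33 to 2.29), but of 2 measured genes of the Id and BMP list 1 was higher and 1 lower. The median ratio of that list was 1.01. Mt1 was at 2657 CPM in Hes5-high cells and 939 CPM in Delta cells, a ratio of 2.83 (2.49 to 3.22). The G2 and M phase list had 14 of 29 measured genes higher and 0 lower. These groups were not matched on original depth, with which this list moved against zero cells. The median depth was 5659 UMIs in Hes5-high cells and 4596 in Delta cells.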

How the data were processed

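The authors deposited 1 table of raw UMI counts, genes in rows and barcodes in columns, for primary neurospheres grown with LIF. Its build is mm10, according to the submitters' processing notes. Which aligner, counter and annotation made it is not given in the sources used here. The series text and the labels differ on nuclei or cells, and barcodes are called cells here. Libraries were planned at 60000 reads per cell, per the labels.

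Cells needed 500 genes, at most 10% mitochondrial UMIs and 2000 UMIs. Of 4000 barcodes, 3765 met the first pair of limits and 3055 all 3. Cells were thinned at random without replacement to 2000 UMIs (seed 1). Summed UMIs per group gave CPM with exact Poisson intervals, ratios with exact conditional binomial intervals, and shares with Clopper-Pearson intervals. A gene was past the fold at a ratio of 1.5 either way with 100 UMIs over both groups. The limit beside 0 of 13 neuron-like cells is 3 counts of the total. That beside 0 of 191 Hes5-high cells is the Clopper-Pearson limit. No test was made. Neuron-like cells had at least 3 thinned UMIs from at least 2 of 10 neuronal genes.

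The members, lists and tests were chosen with earlier results of these data known. Named genes were those of the 33 lists (380 of 399 genes in the table), the 15 highest and 15 lowest ratios without Hes5, Dll1, Dll3, mitochondrial and predicted genes, and technical values; some are not reported here. No doublet caller was run. Software was scipy 1.17.1, numpy 2.4.6, matplotlib 3.10.9 and pandas 2.3.3 on Python 3.11.15. The ratio was tested on simulated data. Positions are from GENCODE M21 on mm10, which held 17959 of 19144 symbols. Sequences are from RefSeq tables. Promoters were matched by symbol, and those of Hes1, Hey1 and Heyl were not used here. Alternatives changed the depth, seed, Hes5 minimum, filters, fold and cells compared.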

Additional observations from a re-analysis of the deposited data

How the results depend on the processing

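Over 16 alternatives, 66 of the named genes counted as higher or lower were followed singly. Of these, 54 kept their direction in all, and 19 also stayed past the fold in all. Others, among them most of the 22 higher G2 and M phase genes, were not followed singly. No paired analysis was possible because the single table does not assign barcodes to the 2 samples, and for the same reason no sample could be left out. The number of genes higher and lower was 662 and 984 at a minimum of 50 UMIs, 111 and 210 at 200 UMIs, 47 and 132 at a fold of 2, 2649 and 5616 with no filter on low counts, 775 and 1390 with groups set on thinned counts, 538 and 905 at a Hes5 minimum of 3, and 887 and 1442 at a minimum of 5. Among cells without proliferation UMIs 193 of 2365 genes were higher and 439 lower. The average over all thinnings, added after seeing the data, gave 183 and 233. The share of Hes5-high cells was 7.82% among cells of at least 4000 UMIs, 2.26% on thinned counts, 3.11% and 1.31% at Hes5 minimums of 3 and 5, 5.38% without hypoxia-high cells and 4.43% among cells without proliferation UMIs. The share with a proliferation UMI was 68.6% at 1000 UMIs, 94.4% at 4000, 87.96% without thinning and 69.6% with groups set on thinned counts, where hypoxia-high cells were 26.1% of Hes5-high cells.

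These ratios crossed 1, and the cause was not tested. With thinning to 1000 UMIs Rela was at 2.33, and to 4000 UMIs Akap13 was at 1.02, Rela at 1.04, Zfp945 at 1.06 and Slc1a2 at 0.803. With another seed S100a1 was at 0.927 and Zfp945 at 1.07. Cdkn2c was at 0.748 with groups set on thinned counts, and Slc1a2 at 0.460 at a Hes5 minimum of 5. Without hypoxia-high cells Vegfa was at 0.772, Egln3 at 0.796, Otx2 at 0.710 and the choroid plexus list at 0.828. Vegfa and Egln3 belong to the list that chose the cells left out. In cells without proliferation UMIs Bcl2l1 was at 1.03, Id1 at 0.272, Cdkn2c at 0.862 and Aurka at 0. Depth limits most genes: below about 100 UMIs over both groups, ratios rest on a few molecules in Hes5-high cells.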
